A study of Mus musculus with 8 samples.

Results

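The 10 tuft cell genes Dclk1, Trpm5, Pou2f3, Avil, Il25, Sh2d6, Alox5ap, Ptgs1, Hpgds and Gnat3 were examined among the 26008 genes measured by RNA sequencing of colonic biopsies from chimeric mice. They were chosen by name as genes that tuft cells use, with earlier results of these data known. All 10 had a row in the table, and 9 of them reached a mean of 10 normalized counts over the 8 libraries, the level required for testing. Il25 was below it. Each of 4 penk-/- and 4 penk+/+ chimeras gave its own biopsy and library, and no animals were pooled. All recipients were male wild-type C57BL/6JRj mice that were lethally irradiated at 7 weeks of age, engrafted with bone marrow of male donors aged 9 to 11 weeks, and examined 18 to 21 weeks later. The donors lacked the gene of preproenkephalin (penk-/-, strain B6.129-Penk-rstm1Pig/J) or carried it (penk+/+), and both groups received the same treatment. Alleles of strain 129 that the penk-/- donors may carry cannot be told apart from the deletion. The deletion was therefore carried by cells that derive from the graft. The colonic epithelium, to which tuft cells belong, came from the wild-type recipient in both groups, as did the cells of the host that outlast irradiation.

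Tuft cells are rare, solitary cells of the intestinal epithelium that sense the content of the lumen with a taste-type pathway. In this pathway, receptors act through the G protein α-gustducin (Gnat3) and through calcium to open the cation channel TRPM5, and the transcription factor POU2F3 is required for the cells to form. Tuft cells release interleukin-25 (Il25), which acts on type 2 innate lymphoid cells, and lipid mediators made from arachidonic acid, among them leukotrienes, for which FLAP (Alox5ap) is needed, and prostaglandin D2, which is made by COX-1 (Ptgs1) and the hematopoietic prostaglandin D synthase (Hpgds). Several of these genes are not private to tuft cells: Dclk1 is also used by neurons and mesenchymal cells, Avil by sensory neurons, Ptgs1 by mesenchymal cells and platelets, Hpgds by mast cells and macrophages, and Alox5ap by leukocytes.

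The values are normalized counts, which are the read counts of a gene divided by a factor for the size of its library. The libraries held 33.1 M to 50.7 M reads counted on genes, with a median of 38.5 M. Of these libraries, penk-/- replicate 3 and penk+/+ replicate 4 stood apart. They held 105658 and 111024 normalized counts of Pbsn, the gene of a protein secreted by the prostate, while the 6 others held 0 to 13425. Several results that rest on this pair of libraries are given with and without them, and others over all 8 libraries only. The genotypes were compared on log2(normalized count + 1) with limma over the 19127 genes with a mean of at least 10. Fold changes on this scale understate the change of genes with low counts. With the adjustment of Benjamini and Hochberg over all these genes, 0 of them (0%) had an adjusted p below 0.05, and 1842 (9.63%) had an unadjusted p below 0.05. In whole biopsies, fewer cells of a type and less RNA per cell cannot be told apart.

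Compared per length of their annotated exons, the genes with the highest levels were those of prostaglandin synthesis. Ptgs1 had a mean of 264 normalized counts per kb over the 8 libraries (range 177 to 385), and Hpgds followed with 122 (range 95.4 to 164). The ranges of both were apart from those of their neighbours in this order. Sh2d6, with 57.5, and Avil, with 54.5 normalized counts per kb, had ranges that overlapped. Dclk1 came next with 24.8 (range 19.9 to 30.7), below the range of Avil. From there, each range overlapped the next, through Trpm5 with 16.6, Pou2f3 with 14.2 and Gnat3 with 9 to Alox5ap with 8.31 normalized counts per kb. Il25 was last, with 1.76.

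The groups of Trpm5 and Gnat3, genes of the taste-type pathway, and of Sh2d6 overlapped between the genotypes. The spread of each between mice of the same genotype was larger than the difference of the group means. Trpm5 (ENSMUSG00000009246, chromosome 7, 142622890 to 142648379, minus strand, GRCm39) had 152, 119, 73.4 and 108 normalized counts in penk-/- replicates 1 to 4 and 142, 79.9, 112 and 64.3 in penk+/+ replicates 1 to 4. Replicate 1 was the highest library of each genotype, and the groups overlapped over most of their ranges. The penk-/- chimeras averaged 113 ± 32.6 and the penk+/+ chimeras 99.6 ± 34.6 normalized counts (SD, n = 4 each). Its log2 fold change was 0.20 (95% interval -0.44 to 0.85, adjusted p = 0.869 with limma). Gnat3 (ENSMUSG00000028777, chromosome 5, 18167547 to 18225473, plus strand), which codes for the α subunit of gustducin, had 24.2, 26.3, 11.6 and 15.5 normalized counts in penk-/- and 18.7, 13.3, 22.5 and 12 in penk+/+ chimeras. These were 14 to 24 reads per library, and the interval of its log2 fold change was wide (0.18, 95% interval -0.54 to 0.91, adjusted p = 0.899 with limma). Sh2d6 (ENSMUSG00000052631, chromosome 6, 72490624 to 72498690, minus strand), which codes for an SH2 domain protein, had 136, 109, 62.5 and 95 normalized counts in penk-/- and 127, 89.4, 82.8 and 75.5 in penk+/+ chimeras. As for Trpm5, replicate 1 of each genotype was the highest library of its group. The log2 fold change of Sh2d6 was 0.08 (95% interval -0.49 to 0.65, adjusted p = 0.953 with limma).

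**Figure D1:**
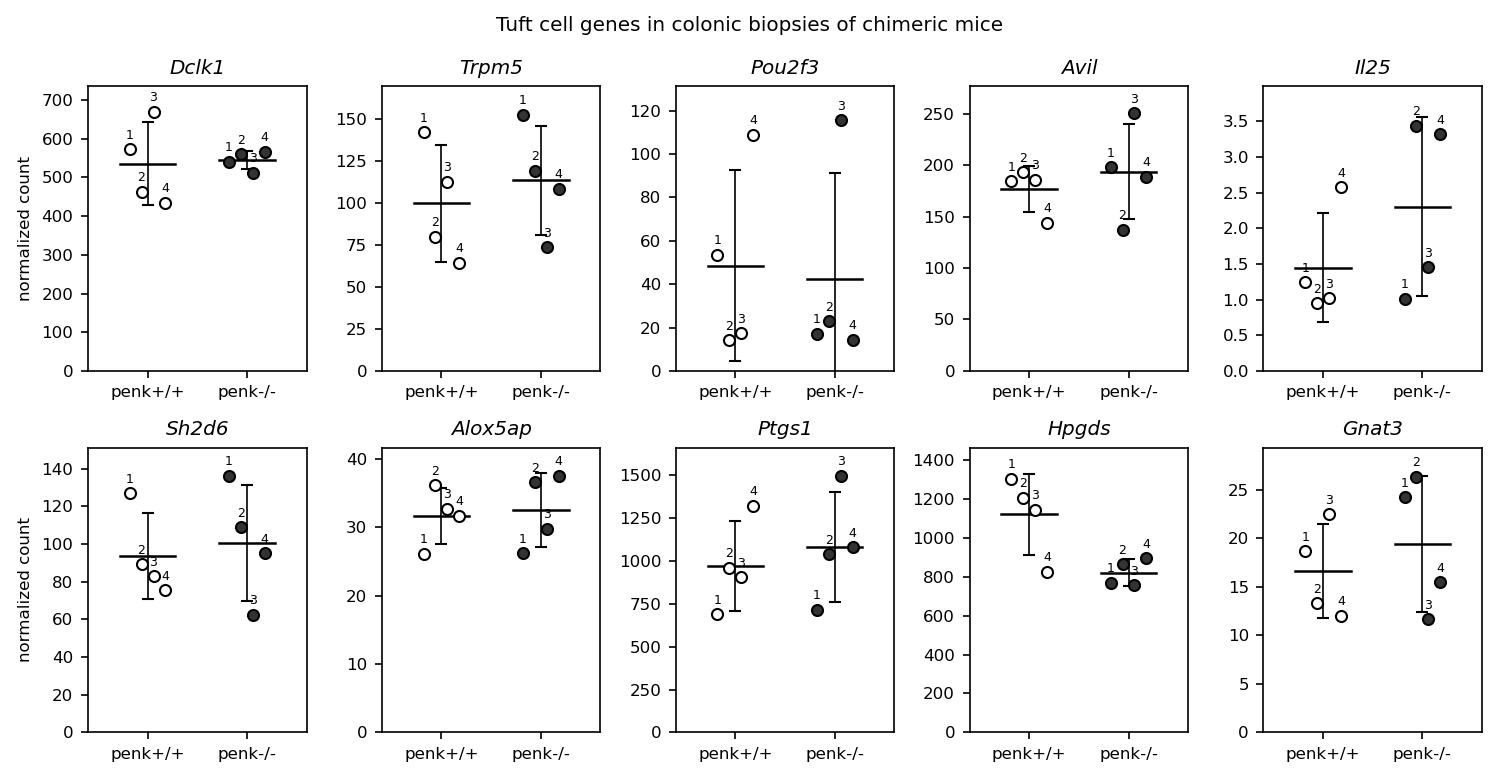
Normalized counts (vertical axis, linear, from 0) of the 10 tuft cell genes in penk+/+ (white circles) and penk-/- chimeras (black circles), with the replicate number beside each circle. Horizontal lines are means and error bars are SD (n = 4 per genotype; the bars of Pou2f3 in penk-/- chimeras run below 0). Pou2f3 was above 100 in only 1 library of each genotype, and Hpgds was above 1100 in 3 of the 4 penk+/+ and in 0 of the 4 penk-/- chimeras.

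Dclk1 (ENSMUSG00000027797, chromosome 3, 55149618 to 55446493, plus strand) codes for a doublecortin-like kinase and is the marker most often used to stain tuft cells. It had 540.2, 559.8, 512 and 567 normalized counts in penk-/- and 572, 463, 669 and 435 in penk+/+ chimeras. The penk-/- libraries lay within the range of the penk+/+ libraries. The means of 545 ± 24.3 and 535 ± 108 (SD, n = 4 each) gave a log2 fold change of 0.05 (95% interval -0.25 to 0.34, adjusted p = 0.943 with limma). Dclk1 had the narrowest interval of the 9 genes tested. Avil (ENSMUSG00000025432, chromosome 10, 126836578 to 126856863, plus strand), which codes for the actin-binding protein advillin, had 198, 137, 251 and 189 normalized counts in penk-/- and 184, 193, 186 and 144 in penk+/+ chimeras. Both the lowest and the highest library of Avil were penk-/- (log2 fold change 0.11, 95% interval -0.31 to 0.52, adjusted p = 0.894 with limma). The locus of Avil overlaps that of Tsfm, a mitochondrial translation factor on the opposite strand with a mean of 697 normalized counts, and the 3' end of Trpm5 overlaps Tssc4 on the opposite strand (603) and the noncoding RNA R74862 on the same strand (28.4). The strand setting used for counting is not given in the sources used here, so that reads shared by such neighbours cannot be told apart.

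Pou2f3 (ENSMUSG00000032015, chromosome 9, 43035228 to 43121666, minus strand), the transcription factor of tuft cells, was the most variable of these genes, and its variation did not follow the genotype. Its normalized counts were 17.2, 22.9, 116 and 14.4 in penk-/- and 53.5, 14.3, 17.4 and 109 in penk+/+ chimeras. The 2 highest libraries were penk-/- replicate 3 and penk+/+ replicate 4, those with the most Pbsn, and the library next to them, penk+/+ replicate 1, was also next to them in Pbsn (13425). Between the genotypes, the log2 fold change was -0.28 (95% interval -2.02 to 1.46, adjusted p = 0.942 with limma). The SD of its log2 values over the 8 libraries was 1.25, larger than that of 98.6% of the genes tested, against 0.45 for Trpm5 and 0.38 for Sh2d6. Among the genes tested that have a name, other than the 10 tuft cell genes, Krt5 had the highest r with Pou2f3 (0.98 over 8 libraries). Krt5 is a keratin of basal cells of stratified and glandular epithelia. Krt5 was chosen after its values were seen. It had 8.08, 13.7, 199.9 and 11 normalized counts in penk-/- and 51.0, 9.51, 6.13 and 173 in penk+/+ chimeras, so that the 3 libraries with the most Pou2f3 were also those with the most Krt5 and Pbsn. In the 6 libraries without penk-/- replicate 3 and penk+/+ replicate 4, Pou2f3 ranged from 14.3 to 53.5 normalized counts (median 17.3).

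Il25 (ENSMUSG00000040770, chromosome 14, 55170152 to 55173294, plus strand), which codes for the cytokine of tuft cells, was detected in each library by only 1 to 3 reads, 15 in all. Its normalized counts were 1.01, 3.43, 1.45 and 3.31 in penk-/- and 1.24, 0.951, 1.02 and 2.57 in penk+/+ chimeras. A difference between the genotypes was not detectable at this depth (exact permutation test, two-sided, p = 0.229).

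Of the lipid mediator genes Hpgds, Ptgs1 and Alox5ap, Hpgds had the largest difference between the genotypes relative to its error, and it did not pass the adjustment. Hpgds (ENSMUSG00000029919, chromosome 6, 65094001 to 65121983, minus strand) had 768, 863, 756 and 894 normalized counts in penk-/- and 1303, 1206, 1144 and 825 in penk+/+ chimeras. Replicates 1 to 3 of the penk+/+ chimeras were above all penk-/- chimeras, and penk+/+ replicate 4 lay among them. On average, the penk-/- chimeras had 820.3 ± 68.5 and the penk+/+ chimeras 1119 ± 207 normalized counts (SD, n = 4 each). The difference on the log2 scale was -0.43 (SE 0.14, 95% interval -0.74 to -0.13, unadjusted p = 0.0107, adjusted p = 0.400 with limma), and the exact permutation test gave p = 0.0857 (two-sided), where the smallest p that 4 against 4 libraries allow is 0.0286. When each library was left out in turn, the log2 fold change lay between -0.57, without penk+/+ replicate 4, and -0.35. Without both libraries high in Pbsn it was -0.53, and the adjusted p of Hpgds was above 0.05 with limma in each of these fits. Hpgds was the only one of the 9 tested genes with an unadjusted p below 0.05. Of all genes tested, 9.63% reached this level in either direction, and 5.33% were lower in penk-/- chimeras. Beside this background, 1 gene of 9 is no result about the tuft cell genes as a group.

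Mast cells also use Hpgds. Of the 8 mast cell markers examined, 5 passed the filter. The summed level of all 8 was 232 to 470.3 normalized counts in penk-/- and 385 to 634 in penk+/+ chimeras. Fcer1a and Ms4a2, which code for subunits of the IgE receptor, stayed at 0 to 7.73 normalized counts, and Fcer1a was at 0 in 3 of the 4 penk+/+ chimeras. Most of the sum was Cma1, a chymase of mast cells, with 168, 270.2, 319.8 and 274 normalized counts in penk-/- and 489, 354, 576 and 292 in penk+/+ chimeras (log2 fold change -0.72, SE 0.25, unadjusted p = 0.0174, adjusted p = 0.429 with limma). The other 4 markers that passed (Cpa3, Mcpt1, Mcpt4 and Tpsb2) were higher on average in penk-/- chimeras, at low levels of 0.951 to 45.8 normalized counts. Within each genotype, Cpa3, Mcpt4 and Tpsb2 were highest in the library high in Pbsn. The mean log2 score of the list was 0.56 higher in penk-/- chimeras (exact permutation test, two-sided, p = 0.257). Over the 8 libraries, the r of Hpgds with this score was -0.65 (exact permutation p = 0.0863, adjusted 0.388; rho -0.67, exact permutation p = 0.0831, adjusted 0.512). It was -0.37 without the 2 libraries farthest from the median of the score, and -0.47 without penk-/- replicate 3 and penk+/+ replicate 4. The score of the 8 macrophage markers was 0.21 higher in penk-/- chimeras (exact permutation test, two-sided, p = 0.457). Its r with Hpgds was -0.25 (exact permutation p = 0.548, adjusted 0.812; rho -0.33, exact permutation p = 0.428, adjusted 0.747). Without the 2 farthest libraries it was 0.19, and without the pair high in Pbsn -0.21.

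Ptgs1 (ENSMUSG00000047250, chromosome 2, 36120438 to 36142287, plus strand) had 716, 1038, 1498 and 1079 normalized counts in penk-/- and 689, 961, 904 and 1323 in penk+/+ chimeras. Replicate 1 was the lowest library of each genotype, and the highest libraries were penk-/- replicate 3 and penk+/+ replicate 4. The log2 fold change was 0.15 (95% interval -0.38 to 0.68, adjusted p = 0.883 with limma). Alox5ap (ENSMUSG00000060063, chromosome 5, 149196003 to 149227762, plus strand) had 26.3, 36.6, 29.8 and 37.6 normalized counts in penk-/- and 26.1, 36.1, 32.7 and 31.7 in penk+/+ chimeras. Its groups were nearly superimposed (log2 fold change 0.03, 95% interval -0.42 to 0.48, adjusted p = 0.976 with limma).

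**Figure D2:**
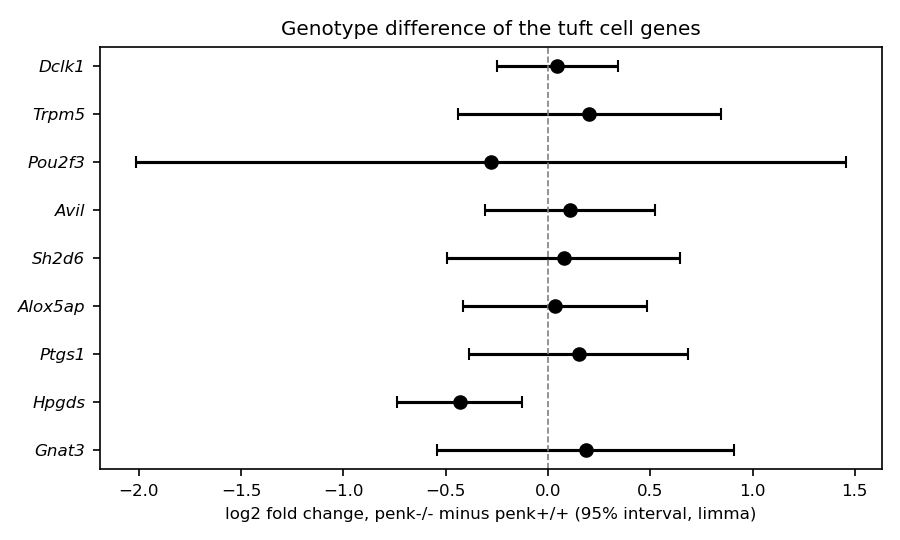
Log2 fold change (penk-/- minus penk+/+, horizontal axis) of the 9 tuft cell genes that were tested, with the 95% intervals of limma as bars and 0 as a dashed line. The interval of Hpgds (-0.74 to -0.13) was the only one that did not include 0, before adjustment over all genes, and that of Pou2f3 was the widest (-2.02 to 1.46).

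In all, 2 of the 9 genes were lower and 7 were higher in penk-/- chimeras by the sign of the log2 fold change, with a median of 0.08, beside a median of 0.01 over all 19127 genes. The groups of all 9 overlapped, whereas 5.63% of all genes had groups that did not overlap (2.74% lower and 2.89% higher in penk-/- chimeras). An absence of difference was not shown by these p-values. The intervals left room for changes of up to a log2 of 0.34 for Dclk1, 0.85 for Trpm5 and 0.91 for Gnat3. For Pou2f3 the interval ran from -2.02 to 1.46.

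Other genes related to tuft cells were followed in 5 lists, of taste-type signalling, transcription regulators, eicosanoid synthesis, further marker genes and the circuit with type 2 lymphocytes. The lists are called tuft-related here, as other cells, such as lymphocytes and crypt progenitors, also use some of their genes. Of the 70 genes listed, 68 were in the table and 61 passed the filter. By sign, 24 were lower and 37 higher in penk-/- chimeras, with a median log2 fold change of 0.04. Over all genes tested, 9347 were lower and 9780 higher. An unadjusted p below 0.05 was reached by 3 of the 61 genes, all of them higher, and an adjusted p below 0.05 by 0 genes, with limma. Of all genes tested, 9.63% had an unadjusted p below 0.05 in either direction, and 4.30% were higher at this level.

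These 3 genes were Areg, Sox9 and Ptges3. Areg codes for amphiregulin, a ligand of the EGF receptor that type 2 lymphoid and epithelial cells produce. It had 1160.2, 1340.5, 1052 and 1088 normalized counts in penk-/- and 877, 573, 802 and 990.4 in penk+/+ chimeras, so that all penk-/- libraries were above all penk+/+ libraries. Its log2 fold change was 0.54 (SE 0.16, unadjusted p = 0.00707, adjusted p = 0.366 with limma; 2.89% of all genes tested were higher in penk-/- chimeras without overlap). Sox9, a transcription factor of crypt progenitors that tuft cells also express, had 1813, 2500.2, 2196 and 2377 against 1725, 1742, 1920.5 and 1858 normalized counts. The lowest penk-/- library was within the range of the penk+/+ libraries (log2 fold change 0.29, SE 0.10, adjusted p = 0.425 with limma). Ptges3, a prostaglandin E synthase that is also a co-chaperone of HSP90, had 4429, 4449.8, 4892 and 4399.6 against 4039.8, 4192, 4041 and 4346 normalized counts. Its groups did not overlap, and the difference was small (log2 fold change 0.13, SE 0.06, adjusted p = 0.515 with limma).

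The other most abundant genes of each list had an unadjusted p above 0.05 with limma. In taste-type signalling (5 of 8 lower, 0 with an unadjusted p below 0.05), the inositol trisphosphate receptors Itpr3 and Itpr2 had log2 fold changes of -0.07 and -0.02, and the phospholipase Plcb2 one of 0.14. Among the transcription regulators (3 of 7 lower), those of Etv1 and Runx1 were -0.16 and -0.11. In eicosanoid synthesis (1 of 10 lower), the prostaglandin-degrading enzyme Hpgd and the phospholipase Pla2g4a had -0.14 and 0.07. Among the further markers (10 of 24 lower, 0 with an unadjusted p below 0.05), Krt18, Cd24a and Hepacam2 had -0.11, 0.16 and -0.08. In the circuit with type 2 lymphocytes (5 of 12 lower), the receptor subunits Il13ra1 and Il4ra had log2 fold changes of -0.09 and -0.0015. The adjusted p of each of these genes lay above that of Areg, with limma.

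Whether the tuft cell genes varied together was then examined over the 8 libraries, for the 36 pairs that the 9 tested genes form. Over these libraries, 16 pairs had a positive and 20 a negative Pearson r, and 4 pairs had an unadjusted p below 0.05 (exact permutation over the 40320 pairings, two-sided). After adjustment over the 36 pairs, 0 remained. Trpm5 and Sh2d6 had the closest positive relation, with r = 0.88 (exact permutation p = 0.00494, adjusted 0.0819) and Spearman rho = 0.90 (exact permutation p = 0.00456, adjusted 0.164). Without the 2 libraries farthest from the median of Trpm5, r was 0.81. These 2 were penk-/- replicate 3 and penk+/+ replicate 4, those high in Pbsn. Of all other genes tested, 0.523% had a positive r with Trpm5 at least as high as that of Sh2d6. From the side of Sh2d6, 0.91% had one at least as high as that of Trpm5. Negative relations were not counted in these shares. Among all genes, 9.12% had an r of 0.7 or more with Ptgs1, and 8.83% one of -0.7 or less. These shares were 7.72% and 7.95% for Sh2d6, 4.56% and 5.82% for Trpm5, and 2.73% and 2.91% for Gnat3.

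Trpm5 and Gnat3 also varied in the same direction, with r = 0.85 (exact permutation p = 0.012, adjusted 0.108) and rho = 0.86 (exact permutation p = 0.0107, adjusted 0.184), and r was 0.69 without the 2 libraries farthest from the median of Trpm5. Ptgs1 went the opposite way. Its r with Sh2d6 was -0.89 (exact permutation p = 0.00503, adjusted 0.0819; rho -0.76, exact permutation p = 0.0368, adjusted 0.265), and its r with Trpm5 was -0.86 (exact permutation p = 0.00682, adjusted 0.0819; rho -0.83, exact permutation p = 0.0154, adjusted 0.184). Without the 2 farthest libraries these were -0.74 and -0.69. When the genotype means were removed, r was 0.88 for Trpm5 and Sh2d6, -0.96 for Trpm5 and Ptgs1 and -0.94 for Sh2d6 and Ptgs1. These pairs then passed an adjusted p of 0.05. Residuals of this kind cannot be exchanged freely between libraries, so that these permutation p-values are approximate and may be too small.

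**Figure D3:**
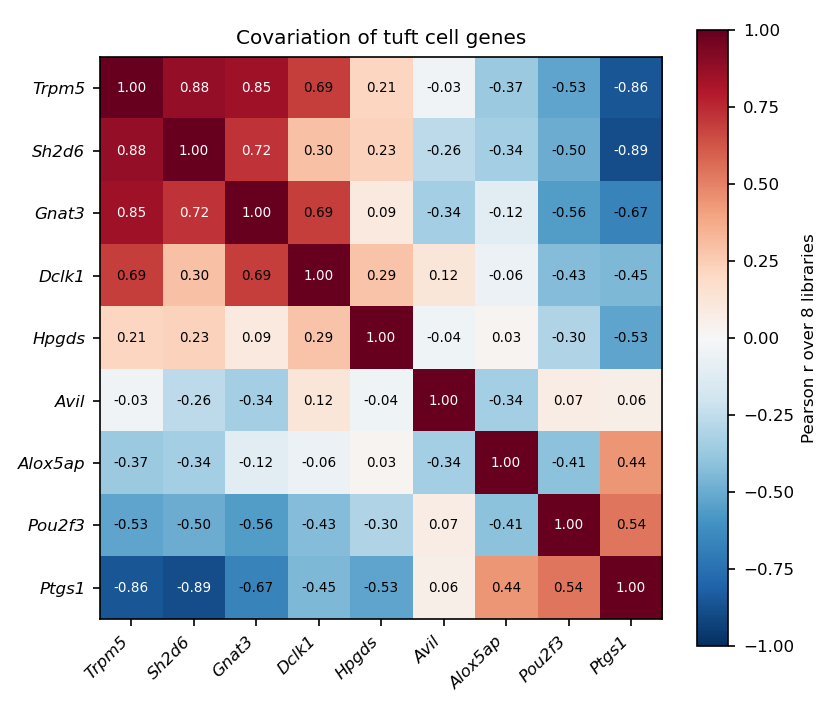
Pearson r of log2(normalized count + 1) over the 8 libraries for each pair of the 9 tuft cell genes tested, in red where positive and in blue where negative. Trpm5, Sh2d6, Gnat3 and Dclk1 formed positive pairs (0.30 to 0.88), and Ptgs1 and Pou2f3 were negative with each of them.

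The r of Pou2f3 with Trpm5, Sh2d6 and Gnat3 was negative over the 8 libraries. As a pair of libraries set it apart, its relations were also described without them, with no test. The r of Pou2f3 with Trpm5 went from -0.53 over 8 to 0.55 over the 6 other libraries, and that with Sh2d6 from -0.50 to 0.55. With Gnat3 it went from -0.56 to 0.22, and with Ptgs1 from 0.54 to -0.61. Avil and Alox5ap had no r above 0.50 in size with another of these genes over 8 libraries. Over the 6 other libraries, Alox5ap had an r of 0.99 with Ptgs1, -0.78 with Trpm5, -0.76 with Sh2d6 and -0.60 with Pou2f3. Avil had one of -0.53 with Gnat3. Without the 2 libraries farthest from the median of Alox5ap, its r with Ptgs1 was -0.67. Without those farthest from the median of Avil, the r of Avil with Gnat3 was 0.61. The sign of these last relations thus depended on which libraries were left out.

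Genes outside these 10 were then chosen by their r with Trpm5 after their values were seen. Their relation to it was thus given by the choice and adds no support. Of the 61 tuft-related genes that passed the filter, Rgs13, a regulator of G protein signalling of tuft cells, was closest to Trpm5 (r = 0.95 over 8 libraries, a description without test). It had 84.8, 57.2, 29.8 and 49.7 normalized counts in penk-/- and 62.2, 38.0, 53.1 and 36.0 in penk+/+ chimeras, so that its lowest libraries were those of the lowest Trpm5. The phosphatase Ptpn18 (0.91), Il13ra1 (0.77), Hepacam2 (0.73) and the lectin Siglecf (0.73) also followed Trpm5. The prostaglandin E synthase Ptges (-0.88), the taste receptor Tas1r1 (-0.80), Il33 (-0.80), the keratin Krt23 (-0.76), the transcription factor Gata3 (-0.72) and Pou2af3 (-0.71), a cofactor of POU2F3, had an r of -0.7 or less with it. Ptges followed Ptgs1 instead (0.93). Ptges, Tas1r1, Il33, Gata3 and Pou2af3 were highest in penk-/- replicate 3 and penk+/+ replicate 4, where Trpm5 was lowest and Ptgs1 highest. In this pair of libraries Ptges had 1651 and 1717 normalized counts, against 385 to 674 in the others. Gata3 had 727 and 689, against 5.05 to 94.6. The r values of this paragraph are over all 8 libraries only, and were not taken without this pair. Genes with an r of at least 0.7 in size were a minority. The median r with Trpm5 was -0.10 over the 61 genes and 0.02 over all genes, and 8.20% of the 61 had an r of 0.7 or more, against 4.56% of all genes, while 9.84% had one of -0.7 or less, against 5.82%.

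**Figure D4:**
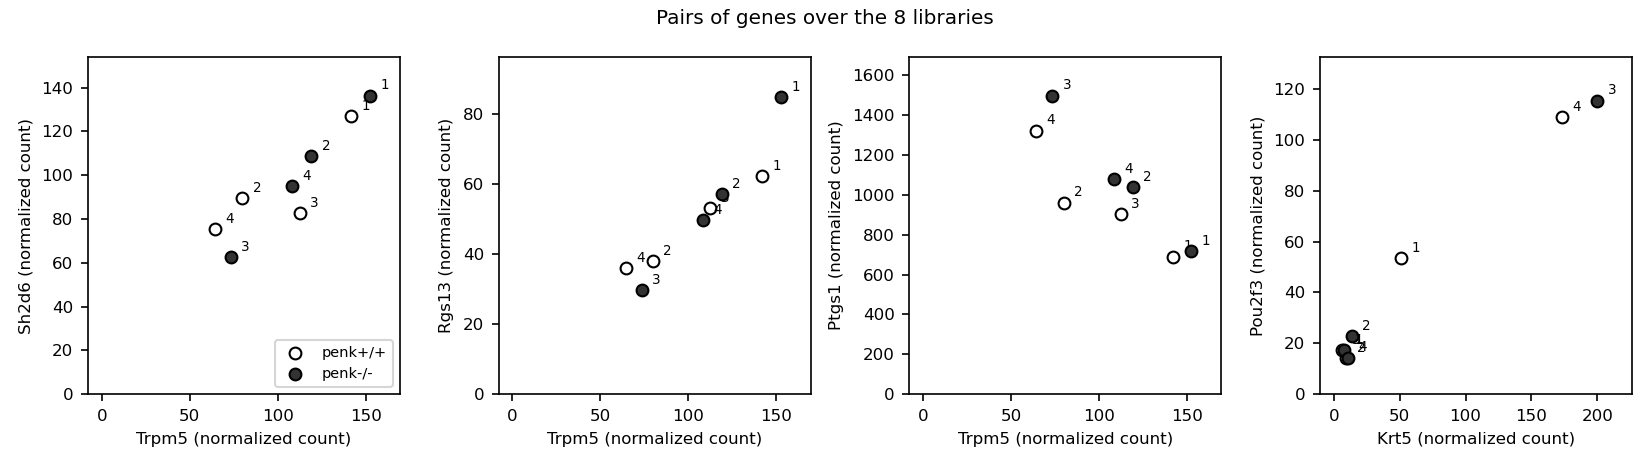
Normalized counts of pairs of genes in the 8 libraries (both axes linear, each point a mouse with its replicate number; white, penk+/+; black, penk-/-). Sh2d6 and Rgs13 were high and Ptgs1 was low where Trpm5 was high, and Pou2f3 was high where Krt5 was high, with penk-/- replicate 3 and penk+/+ replicate 4 far from the others.

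A mean of the standardized levels of Trpm5, Pou2f3, Sh2d6, Avil and Gnat3 was also taken as a tuft cell score, and the 12 genes most like it were listed as a description. They were Trappc13 (r = 0.97), Zfp273, Btf3l4b, Rps15a-ps5, Ube3c, Zfp952, Sfn, Piga, Sanbr, Tubgcp4, Stc2 and Gm25596 (r = 0.95), over the 8 libraries. None of the 12 was in the 5 tuft-related lists. In the score, Trpm5, Sh2d6 and Gnat3 had a positive r with each other (0.72 to 0.88), and Pou2f3 and Avil did not follow them. The lowest was that of Sh2d6 and Gnat3 (exact permutation p = 0.0508, adjusted 0.299). It was 0.49 without the 2 libraries farthest from the median of Sh2d6, and 0.41 without penk-/- replicate 3 and penk+/+ replicate 4.

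The promoters of Trpm5, Sh2d6 and Gnat3 are shown to compare the sequence before their starts. These genes had a positive r with each other over the 8 libraries, but no pair of them had an adjusted p below 0.05. They are the 250 bases before the start of the canonical transcript, read from GRCm39, at chr7:142648380-142648629 (Trpm5, minus strand), chr6:72498691-72498940 (Sh2d6, minus strand) and chr5:18167297-18167546 (Gnat3, plus strand).

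Trpm5: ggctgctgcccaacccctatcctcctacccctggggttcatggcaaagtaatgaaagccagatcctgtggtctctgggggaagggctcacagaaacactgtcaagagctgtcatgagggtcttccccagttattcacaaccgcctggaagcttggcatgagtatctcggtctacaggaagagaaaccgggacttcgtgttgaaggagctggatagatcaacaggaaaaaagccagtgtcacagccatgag

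Sh2d6: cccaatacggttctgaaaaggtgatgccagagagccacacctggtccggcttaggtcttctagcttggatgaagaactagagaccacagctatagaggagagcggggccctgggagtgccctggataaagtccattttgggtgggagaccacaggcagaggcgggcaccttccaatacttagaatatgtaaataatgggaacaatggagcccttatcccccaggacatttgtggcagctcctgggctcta

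Gnat3: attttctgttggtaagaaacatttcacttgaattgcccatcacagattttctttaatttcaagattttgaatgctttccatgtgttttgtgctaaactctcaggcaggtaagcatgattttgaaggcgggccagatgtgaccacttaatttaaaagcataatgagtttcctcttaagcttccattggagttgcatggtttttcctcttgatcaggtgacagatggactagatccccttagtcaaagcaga

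The GC content was 52.8% for Trpm5, 52.8% for Sh2d6 and 38.4% for Gnat3, against a median of 54.8% over the windows of 19039 genes.

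The content of other cell types in the biopsies was compared with the tuft cell genes through 13 marker lists, in 117 relations, of which 18 had an unadjusted p below 0.05 and 0 an adjusted p below 0.05 (exact permutation over all pairings, two-sided). Each list score is the mean of the centred log2 values of its genes. In these relations, the 2 farthest libraries are those farthest from the median of the list score. Sh2d6 was closest to the goblet cell markers, with r = 0.92 (exact permutation p = 0.00144, adjusted 0.0841) and rho = 0.90 (exact permutation p = 0.00456, adjusted 0.212). The r was 0.86 without the 2 farthest libraries and 0.88 without penk-/- replicate 3 and penk+/+ replicate 4. Gnat3 was closest to the enteroendocrine markers, with r = 0.88 (exact permutation p = 0.00119, adjusted 0.0841) and rho = 0.93 (exact permutation p = 0.00223, adjusted 0.212), and r was 0.93 without the 2 farthest libraries and 0.83 without penk-/- replicate 3 and penk+/+ replicate 4. Both relations passed an adjusted p of 0.05 when the genotype means were removed, where the permutation p-values are approximate and may be too small.

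Trpm5 had an r of 0.80 with the goblet cell and 0.80 with the enteroendocrine markers (exact permutation p = 0.0124 and 0.0128, adjusted 0.235 for each; rho 0.88 for each, exact permutation p = 0.00724, adjusted 0.212), and r of 0.82 and 0.74 without the 2 farthest libraries (0.91 and 0.64 without penk-/- replicate 3 and penk+/+ replicate 4). The r of Ptgs1 was negative with these and with the epithelium markers (-0.84, -0.80 and -0.74). Without the 2 farthest libraries these were -0.54, -0.47 and -0.23, and without penk-/- replicate 3 and penk+/+ replicate 4 they were -0.74, -0.38 and -0.82. The largest positive r of Ptgs1 were with the glia (0.66), fibroblast (0.65) and accessory gland markers (0.64), with an adjusted exact permutation p of 0.388 for each. They were 0.58, -0.16 and 0.56 without the 2 farthest libraries. Without penk-/- replicate 3 and penk+/+ replicate 4 they were 0.80, 0.95 and 0.23. Alox5ap, which leukocytes use, had its largest r with the fibroblast (0.78), T and B cell (0.75) and macrophage markers (0.74). These were 0.20, 0.56 and 0.15 without the 2 libraries farthest from the median of each list score. Without penk-/- replicate 3 and penk+/+ replicate 4 they were higher instead, at 0.94, 0.79 and 0.90. These relations therefore depended on which libraries were left out. Dclk1 had an r of -0.04 with the epithelium markers. Between the genotypes, the scores of the epithelium, goblet cell and enteroendocrine markers differed by -0.12, -0.04 and 0.01 (exact permutation, two-sided, p = 0.4, 0.83 and 0.94). The part of the cell content in the levels of the tuft cell genes was not tested beyond these values.

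**Figure D5:**
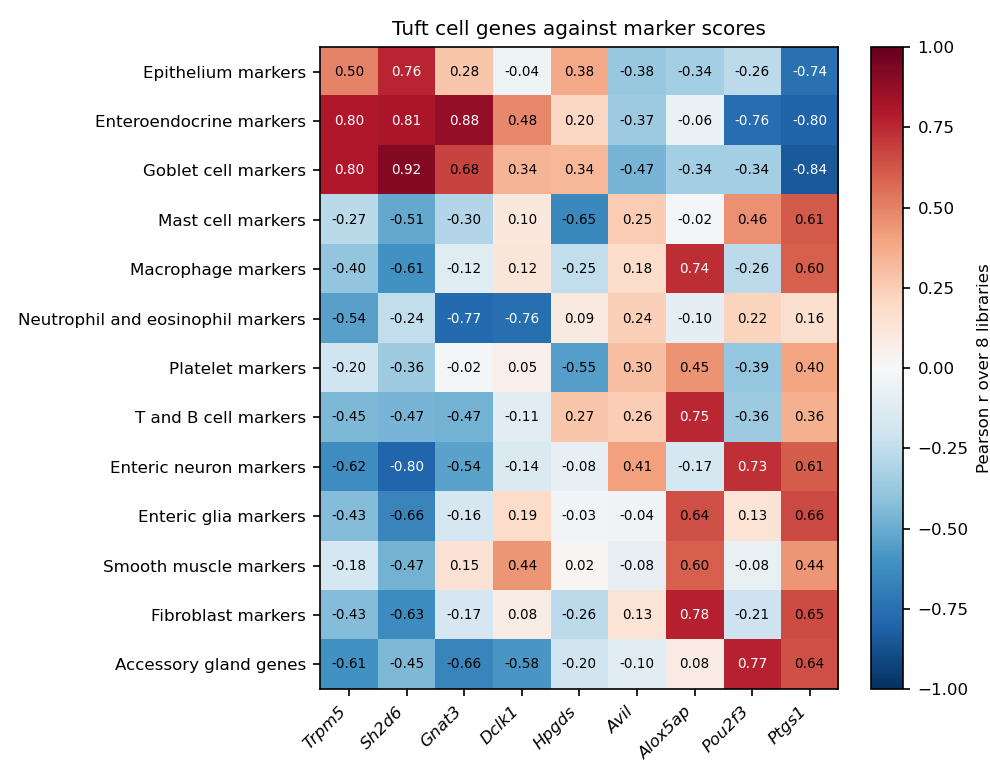
Pearson r over the 8 libraries between each of the 9 tuft cell genes tested (columns) and the scores of 13 lists of marker genes (rows), in red where positive and in blue where negative. Trpm5, Sh2d6 and Gnat3 were positive with enteroendocrine and goblet cell markers (0.68 to 0.92), Ptgs1 was negative with them, and Pou2f3 was highest with the accessory gland genes (0.77). That r of Pou2f3 was 0.49 without penk-/- replicate 3 and penk+/+ replicate 4, and 0.98 without the 2 libraries farthest from the median of the score.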

How the data were processed

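Colonic RNA of 8 chimeric mice (4 penk-/-, 4 penk+/+) was sequenced from stranded, paired-end poly-A libraries. The authors used FastQC, STAR 2.7.8a on GRCm39 with annotation release 107, and DESeq2 1.30.0. The deposited values are a normalized signal, the read count of each gene divided by a size factor per library. Every value (100%) was a whole multiple of the smallest unit of its library (tolerance 0.001), which gave the reads. In penk-/- replicate 1 that unit was 1.01, so close to 1 that rounding could not be told apart from scaling, and its read numbers are less certain. Chi-square per degree of freedom was at least 11.2 for each pair of libraries, and each was counted once. Of 26008 identifiers, 25776 were matched to GENCODE names. Groups were taken from the labels.

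Genotypes were compared with limma 3.58.1 (R 4.3.3; trend, two-sided, no covariate) on log2(value + 1) for genes with a mean of at least 10, and p-values were adjusted by Benjamini-Hochberg over all genes. The p-values measure the spread between mice. Single values were tested by exact permutation over the 70 assignments, and correlations over the 40320 pairings. The genes and lists were chosen with earlier results of these data known. Genes named are the 10 tuft cell genes; per list, the 3 genes of largest mean and those with an unadjusted p below 0.05 or groups that did not overlap; the 12 genes most like the tuft cell score; Pbsn; and genes that overlap them. Krt5, the genes named for their correlation with Trpm5 or Ptgs1, and single mast cell markers were named after their values were seen. Gng13 and Il5 had no row that was used. Alternatives were pseudocounts, filters, limma without trend, quantile normalization, a replicate block, an epithelium covariate and libraries left out. Pbsn as a covariate was added after the data were seen. The planned edgeR and DESeq2 fits were not run because of that library. The limma script was tested on simulated data. Correlations used scipy 1.17.1 and numpy 2.4.6 in Python 3.11.15, tables pandas 2.3.3, and plots matplotlib 3.10.9. Some items are not reported here.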

Additional observations from a re-analysis of the deposited data

Results flagged for a closer look

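Pou2f3 in penk-/- replicate 3 (116 normalized counts) lay far from the other 3 penk-/- chimeras (14.4 to 22.9). The gap to the nearest of them was 0.916 of the whole range of the group, above the 95% limit of Dixon's test for 4 samples. Of 20 groups of 4 libraries examined in this way, 1 passed the limit, and chance alone passes about 1 in 20. The same library held 105658 normalized counts of Pbsn and 199.9 of Krt5. The part of these in the level of Pou2f3 was not tested.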

How the results depend on the processing

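Over all genes, 0 had an adjusted p below 0.05; quantile normalization, the replicate block and the epithelium score as a covariate gave 1 each, and leaving out each replicate in turn gave 0 to 6 (6 without penk-/- replicate 1). The 1842 genes with an unadjusted p below 0.05 became 2938 with the replicate block and 1383 to 2222 with a replicate left out. In the tuft-related lists the 3 genes became 1 to 5 with a replicate left out and 5 without penk-/- replicate 3 and penk+/+ replicate 4. The replicate numbers did not pair the mice (correlations of deviations 0.14, -0.04, -0.32 and -0.16), and the block changed no call of a tuft cell gene. With genotype means removed, 3 of 36 pairs passed an adjusted p of 0.05, and with residuals after the epithelium score 1 did (Trpm5 and Sh2d6, r = 0.89). Relations with marker scores that passed went from 0 to 2 with genotype means removed. The permutation p-values of residuals are approximate and may be too small. The sign of log2 fold changes that were near 0 turned for Alox5ap (-0.0153) and Ptgs1 (-0.0532) with the epithelium covariate, and for Dclk1 (-0.0167) and Avil (-0.121) without the pair of libraries high in Pbsn. With a replicate left out, log2 fold changes ranged from -0.0458 to 0.16 for Dclk1, -0.94 to 0.26 for Pou2f3, -0.0258 to 0.26 for Avil, -0.0849 to 0.29 for Sh2d6, -0.0532 to 0.13 for Alox5ap and -0.0219 to 0.33 for Ptgs1, and without change of sign from 0.02 to 0.39 for Trpm5 and 0.02 to 0.39 for Gnat3. The epithelium covariate moved Trpm5 to 0.41, Sh2d6 to 0.31, Gnat3 to 0.31 and Pou2f3 to -0.58, none with an unadjusted p below 0.05. The cause of these changes was not tested. Under the alternatives, 275 values of single genes and relations kept their direction and side of the threshold, 16 turned in sign and 6 passed a threshold they had missed; 123 counts stayed within 1.5 times and 13 did not. No edgeR or DESeq2 fit was run. Depth limits Il25 (15 reads) and Gnat3 most.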
